A study of Capra hircus with 24 samples.

Results

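The genes described here are 9 genes of plasminogen activation, blood coagulation and the serpin family: PLAU, PLAT, PLAUR, SERPINE2, F3, THBD, TFPI, SERPINF1 and SERPINH1. They were taken by symbol from the 20326 genes of the deposited tables, and all 9 symbols were present. The samples were dermal papilla cells of cashmere goats (Capra hircus), measured by RNA sequencing in 24 libraries. The papilla is the mesenchymal core that the follicle bulb encloses, and in cashmere goats the primary follicles grow the coarse guard hair while the secondary follicles grow the cashmere underhair. The 8 groups were secondary and primary follicles, each in June, labelled early anagen, and in October, labelled anagen, and each from animals labelled female (F) and male (M), with 3 biological replicates per group. No treatment or genotype is labelled, and the labels give no ages, numbers of animals or culture conditions. Month and growth stage go together in the labels and cannot be told apart. Nothing in the labels says that the 3 replicates of a group came from separate animals, so the p-values measure only the spread between these samples, which may be technical.

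Plasminogen is a liver-made zymogen that the activators PLAU (urokinase) and PLAT (tissue-type activator) cut to plasmin, a protease that degrades fibrin and helps to open the pericellular matrix. PLAUR holds urokinase at the cell surface, and serpins such as SERPINE2 trap the activators as suicide substrates. Coagulation starts when F3 (tissue factor) binds factor VII. THBD (thrombomodulin) redirects thrombin to protein C activation, and TFPI blocks the complex of tissue factor and factor VII. SERPINF1 (pigment epithelium-derived factor) and SERPINH1 (HSP47) are serpins that do not act as protease inhibitors; the first is a secreted antiangiogenic and neurotrophic factor, and the second is a collagen chaperone of the endoplasmic reticulum.

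The values are a normalised expression signal with 1 value per gene and library, and library totals ranged from 959766 to 1045876. Read depth is unknown, so no counting interval is given. Pearson correlations of libraries were 0.996 to 0.999 within groups and 0.979 to 0.996 between groups. The papilla marker SOX2 had a mean of 12.4 to 15.9 in the 4 primary groups and in a range of 0.257 to 0.333 in 3 of the 4 secondary groups, whereas the libraries labelled secondary October M had a mean of 14.2. Every result below that uses secondary October M rests on libraries that resemble the primary groups in this marker. SRY was listed at 0 in all 24 libraries, so the labels F and M were not checked. In bulk samples, fewer cells of a type and less RNA per cell cannot be told apart.

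TFPI reached a value of 1 in 1 library only and did not pass the filter on low values (a value of at least 1 in 3 libraries), so 8 of the 9 genes were among the 13049 genes tested. Differences are limma estimates of log2(value + 1), a scale that compresses changes at low values, and a gene is called when its Benjamini-Hochberg adjusted p over all tested genes is under 0.05. The comparisons called a large part of all genes, and the counts of the 8 genes are read against that background. The genes were chosen with earlier results of these data known. A count above that background therefore cannot show that the family differs from other genes. Between secondary and primary follicles in June F, 3 of the 8 genes were higher and 3 lower, where 49.3% of all tested genes were called (25% higher and 24.3% lower). In June M 6 were higher and 2 lower, where the share was 59.6% (30.7% and 28.9%). The count in June F rested on single libraries and was 3 instead of 6 without primary June F replicate 1 or without primary June F replicate 2. In October F 7 were higher and 1 lower in secondary cells, against 35.5% of all genes called (18.3% and 17.2%), and in October M 2 were higher and 1 lower, against 18.5% (10.9% and 7.63%).

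With month, 5 of the 8 genes rose and 2 fell toward October in secondary F, where 51.3% of all genes were called (24.2% higher and 27.1% lower), and 3 rose and 5 fell in secondary M (56.5%, made up of 25.3% and 31.2%). In primary F 3 rose and 4 fell (48.2%, made up of 22.7% and 25.6%), and in primary M 5 rose and 2 fell (55.5%, made up of 26% and 29.5%). M exceeded F for 3 genes and was lower for 3 in secondary June (39.5%, made up of 20.9% higher and 18.6% lower). The counts were 1 and 6 in secondary October (40.4%, made up of 19.5% and 20.9%), 2 and 6 in primary June (45.4%, made up of 23.1% and 22.3%), and 4 and 2 in primary October (33.6%, made up of 15.8% and 17.8%). Of the 8 genes, 7 had a type contrast that differed between M and F in June (41.2% of all genes) and 6 in October (26.7%). All 8 differed between M and F in the month contrast of secondary (37.7%) and of primary cells (36.8%), and between the months in the type contrast of F (40.2%) and of M (43.9%). SERPINE2 and F3 were called in all 8 comparisons of type and month, as were 2.92% of all tested genes, and the median tested gene was called in 4. For both genes the call between types in June F was lost on leaving out single libraries.

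The choice of scaling moved the split of all calls in several comparisons. With every library brought to a common total, the share of calls that were higher went from 51.5% to 64.2% for secondary against primary in June M and from 58.7% to 26.9% in October M. For October against June it went from 44.8% to 31.4% in secondary M and from 46.9% to 60.8% in primary M. The range of the 8 group means on the log2 scale was 4.53 for SERPINE2, 4.31 for THBD, 3.96 for SERPINF1, 3.24 for F3, 1.36 for PLAT, 1.26 for PLAUR, 1.21 for PLAU and 0.61 for SERPINH1. Over all tested genes its median was 0.55 and its upper quartile 0.90, so 7 of the 8 lay above the upper quartile and SERPINH1 lay near the median. Because the genes were chosen with earlier results known, this cannot show that the family varies more than other genes.

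**Figure D1:**
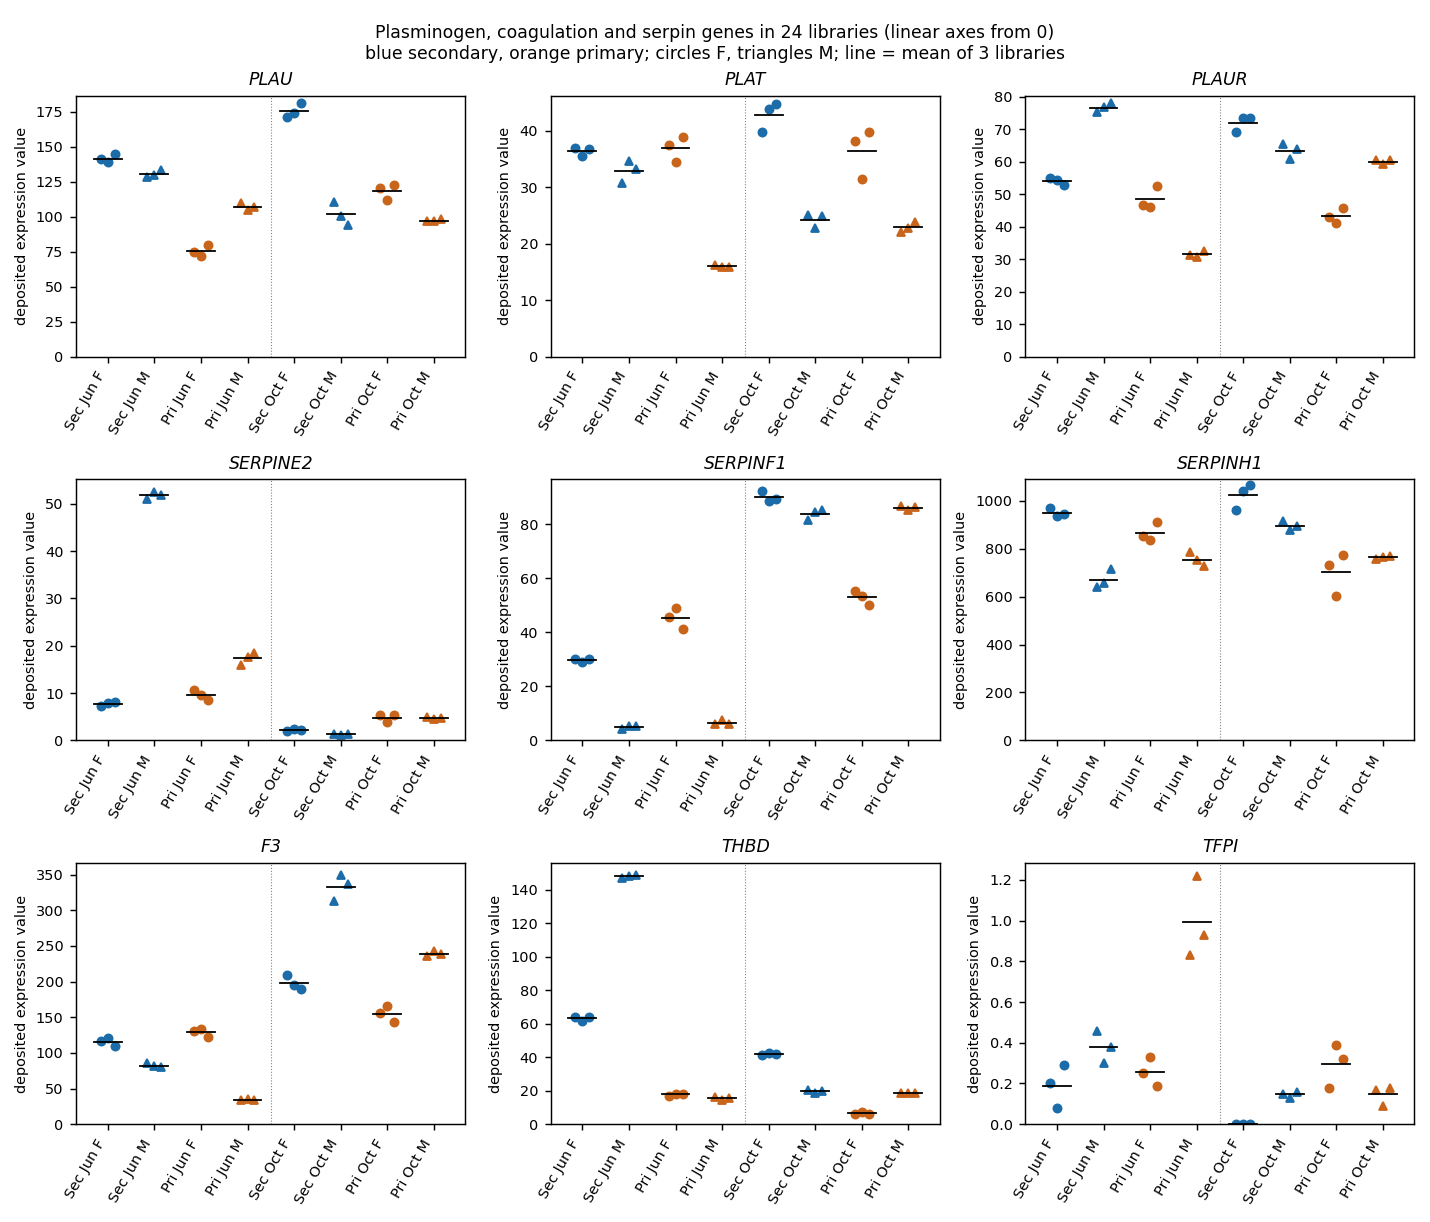
Value of each of the 9 genes in every library (linear axis) by group; each point is 1 library and the bar is the group mean. The points of SERPINE2 span from 1.21 in secondary October M to 52.6 in secondary June M, and those of SERPINH1 stay between 602 and 1066.

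**Figure D2:**
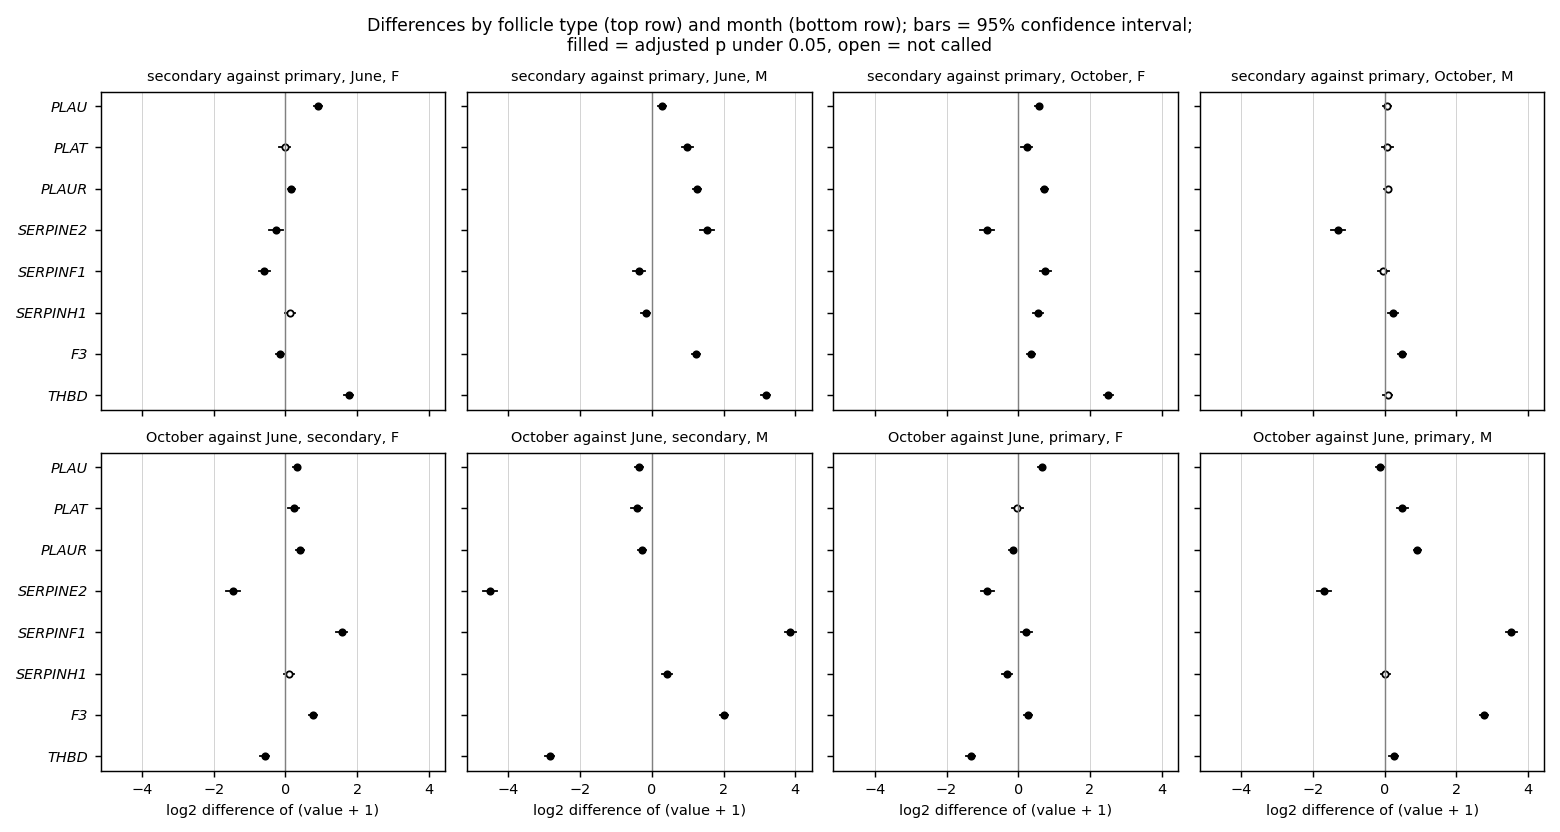
Difference (log2 of value + 1) of the 8 tested genes for secondary against primary follicles (upper row) and October against June (lower row); points are estimates and bars 95% confidence intervals, filled where the adjusted p was under 0.05. SERPINE2 lies below 0 in all 4 panels of the lower row and F3 above 0 in all 4.

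The urokinase gene PLAU was higher in secondary than in primary follicles in 3 of the 4 comparisons. In June F its values were 141, 139 and 144 in secondary and 74.4, 71.6 and 79.9 in primary libraries. In October F they were 171, 174 and 181 against 121, 112 and 123. The groups did not overlap, and the log2 differences were 0.90 ± 0.05 (SE, n = 3 against 3; adjusted p = 1.33e-12, limma) and 0.56 ± 0.05 (adjusted p = 6.47e-09, limma). In June M the values were 129, 130 and 133 in secondary against 110, 104 and 107 in primary libraries, a log2 difference of 0.28. In October M secondary libraries held 111, 101 and 93.7 and primary libraries 96.7, 96.9 and 98.0. These overlapped, and the difference of 0.06 (95% interval -0.05 to 0.17) was not called.

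The month moved PLAU in opposite directions in F and M. It rose from June to October by 0.31 in secondary F and by 0.65 in primary F, and it fell by 0.36 in secondary M. The difference between M and F in this change was -0.67 ± 0.07 in secondary (adjusted p = 1.18e-07, limma) and -0.79 ± 0.07 in primary cells (adjusted p = 9.3e-09, limma). The small fall in primary M (-0.14, adjusted p = 0.0262) was lost with the common total (-0.05) and on leaving out single libraries. It was -0.12 (adjusted p = 0.0911) without primary June M replicate 1, -0.14 (0.0564) without primary June M replicate 3, -0.13 (0.0634) without primary October M replicate 1 and -0.14 (0.06) without primary October M replicate 2. PLAU was highest in secondary October F and lowest in primary June F, 2.33-fold apart in group means, and 2 of the 7 pairs of neighbours in the order of its group means overlapped.

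PLAT, the tissue-type activator, set primary June M apart from the other groups. Its values there were 16.3, 15.9 and 15.8, against 30.7, 34.6 and 33.3 in secondary June M, 37.5, 34.5 and 38.8 in primary June F and 36.9, 35.4 and 36.7 in secondary June F. Secondary exceeded primary cells by 0.99 ± 0.07 in June M (adjusted p = 4.05e-11, limma), while in June F the difference was -0.02 (95% interval -0.17 to 0.13). The difference between M and F in the type contrast of June was 1.01 ± 0.10 (adjusted p = 2.66e-08, limma).

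In October the libraries labelled M held less PLAT than those labelled F in both follicle types. Secondary F held 39.8, 43.9 and 44.8 and secondary M 25.1, 22.8 and 24.8. Primary F held 38.2, 31.4 and 39.9 and primary M 22.1, 22.8 and 23.9. The log2 differences of M against F were -0.80 and -0.64, without overlap between the groups. By month, PLAT rose by 0.23 in secondary F and by 0.49 in primary M, fell by 0.42 in secondary M, and differed by -0.02 in primary F (95% interval -0.17 to 0.12). The difference between follicle types in October F (0.23, adjusted p = 0.0137) rested on single libraries. It was 0.21 (adjusted p = 0.0501) without secondary October F replicate 2, 0.20 (0.0629) without secondary October F replicate 3 and 0.13 (0.109) without primary October F replicate 2. In a fit of the compared groups alone it was not called either (adjusted p = 0.126).

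PLAUR, the urokinase receptor, was likewise lowest in primary June M. The 3 libraries there held 31.2, 30.7 and 32.5, against 75.2, 76.9 and 78.0 in secondary June M, where the gene was highest. The difference of 1.26 ± 0.05 (adjusted p = 9.21e-16, limma) was its largest between follicle types. In October F secondary libraries held 69.0, 73.6 and 73.5 and primary libraries 42.8, 41.2 and 45.8, a difference of 0.72. In October M the 2 types held 65.5, 61.0 and 63.8 against 60.6, 59.1 and 60.4, and the difference of 0.08 (95% interval -0.03 to 0.18) was not called.

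The change of PLAUR with month ran opposite in the 2 follicle types within each sex. It rose by 0.40 in secondary F and fell by 0.27 in secondary M, and it rose by 0.91 in primary M. The month difference of the type contrast was 0.56 ± 0.07 in F (adjusted p = 9.04e-07, limma) and -1.18 ± 0.07 in M (adjusted p = 4.69e-12, limma). The fall in primary F (-0.16, adjusted p = 0.012) was lost without primary June F replicate 3 (-0.10, adjusted p = 0.107), without primary October F replicate 2 (-0.12, 0.0589) and in a fit of the compared groups alone (0.151). The June F difference between types (0.16, adjusted p = 0.0097; 55.1, 54.5 and 52.9 against 46.7, 46.0 and 52.4) was lost without primary June F replicate 1 (0.14, 0.0512) or replicate 2 (0.13, 0.0621).

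SERPINE2, also called protease nexin-1, inhibits thrombin, urokinase and plasmin at the cell surface, and it had the widest range of the 9 genes. Secondary June M held 51.0, 52.6 and 51.9, primary June M 15.8, 17.6 and 18.5, secondary June F 7.17, 7.87 and 8.20, and primary June F 10.6, 9.48 and 8.45. In October all values lay lower, at 1.90, 2.41 and 2.21 in secondary F, 1.27, 1.21 and 1.41 in secondary M, 5.30, 3.86 and 5.30 in primary F, and 4.98, 4.44 and 4.68 in primary M. Highest and lowest group means were 39.96-fold apart.

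From June to October SERPINE2 fell in all 4 combinations of type and sex, with no overlap between the months. The fall was -4.53 ± 0.09 on the log2 scale in secondary M (adjusted p = 2.58e-20, limma), -1.46 in secondary F, -1.68 in primary M and -0.86 in primary F. The M and F changes differed by -3.06 ± 0.13 in secondary cells (adjusted p = 2.93e-14, limma). The direction of the type contrast turned with the month in M. Secondary cells exceeded primary cells by 1.53 in June M (adjusted p = 2.26e-12, limma) and were lower by -1.31 in October M (adjusted p = 4.55e-10, limma) and by -0.87 in October F (adjusted p = 9.1e-08, limma). The June F difference (-0.26, adjusted p = 0.0232) was lost without secondary June F replicate 1 (-0.21, 0.103), without primary June F replicate 1 (-0.19, 0.139) and without primary June F replicate 2 (-0.26, 0.0503).

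F3, the tissue factor gene, was higher in October than in June in every combination of type and sex. In June its values were 117, 120 and 110 in secondary F, 85.2, 81.4 and 79.5 in secondary M, 131, 133 and 122 in primary F, and 33.6, 34.9 and 34.3 in primary M. In October they were 209, 195 and 190, then 313, 350 and 336, then 156, 165 and 143, and finally 235, 243 and 239 in the same order of groups. No month pair overlapped. The rise was 2.77 ± 0.05 on the log2 scale in primary M (adjusted p = 1e-20, limma), 2.01 in secondary M, 0.77 in secondary F and 0.26 in primary F.

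The rise of F3 was larger in M than in F by 1.24 ± 0.08 in secondary cells (adjusted p = 1.28e-11, limma) and by 2.51 ± 0.08 in primary cells (adjusted p = 5.05e-17, limma). F3 was thus lower in M than in F in June (-0.49 in secondary and -1.88 in primary cells) and higher in October (0.75 and 0.63). Secondary exceeded primary cells by 1.24 in June M, 0.35 in October F and 0.47 in October M. The lower secondary value of June F (-0.15, adjusted p = 0.0212) was lost without secondary June F replicate 3 (-0.12, 0.113), without primary June F replicate 1 (-0.14, 0.0672) and without primary June F replicate 2 (-0.13, 0.0888). No neighbours in the order of the 8 group means overlapped, as was also so for SERPINF1 and PLAUR. How many of all tested genes share this was not counted.

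THBD, the thrombin receptor thrombomodulin, was above the primary level in secondary cells in 3 of the 4 comparisons, with no overlap. In June M the secondary libraries held 147, 149 and 149 and the primary libraries 16.3, 14.5 and 15.8. In June F they held 64.1, 61.7 and 63.8 against 16.8, 18.3 and 18.3, and in October F 41.4, 42.4 and 42.0 against 6.17, 7.48 and 6.02. The log2 differences were 3.18 ± 0.06 (adjusted p = 2.84e-21, limma), 1.77 (1.44e-16) and 2.51 (7.33e-19). In October M the types held 20.6, 18.5 and 20.0 against 18.7, 18.4 and 18.8, and the difference of 0.08 (95% interval -0.05 to 0.20) was not called.

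The type contrast of THBD in October was smaller in M than in F by -2.44 ± 0.08 (adjusted p = 9.66e-16, limma). Toward October THBD fell by 2.85 in secondary M, by 1.32 in primary F and by 0.58 in secondary F, and it rose by 0.25 in primary M. As for SERPINE2, secondary June M was the highest group. Endothelial cells carry much thrombomodulin in vivo. Of the 12 endothelial markers listed, ERG made up most of the summed level. The sum of all 12 was 34.4 to 38.1 in secondary and 21.3 to 22.7 in primary June F. It was 37.3 to 38.7 against 22.8 to 24.1 in June M and 43.2 to 46.4 against 26.64 to 30.65 in October F. In October M it was 34.4 to 37.6 against 33.3 to 34.8. Without ERG, the other 11 summed to 0.38 to 2.98 over the 24 libraries. That sum was highest in secondary June M (2.85 to 2.98), the group with the highest THBD, where CDH5 and TIE1 were at 0 and the mean of PECAM1 was 2.00. The part of the endothelial markers, ERG included, in the result was not tested.

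**Figure D3:**
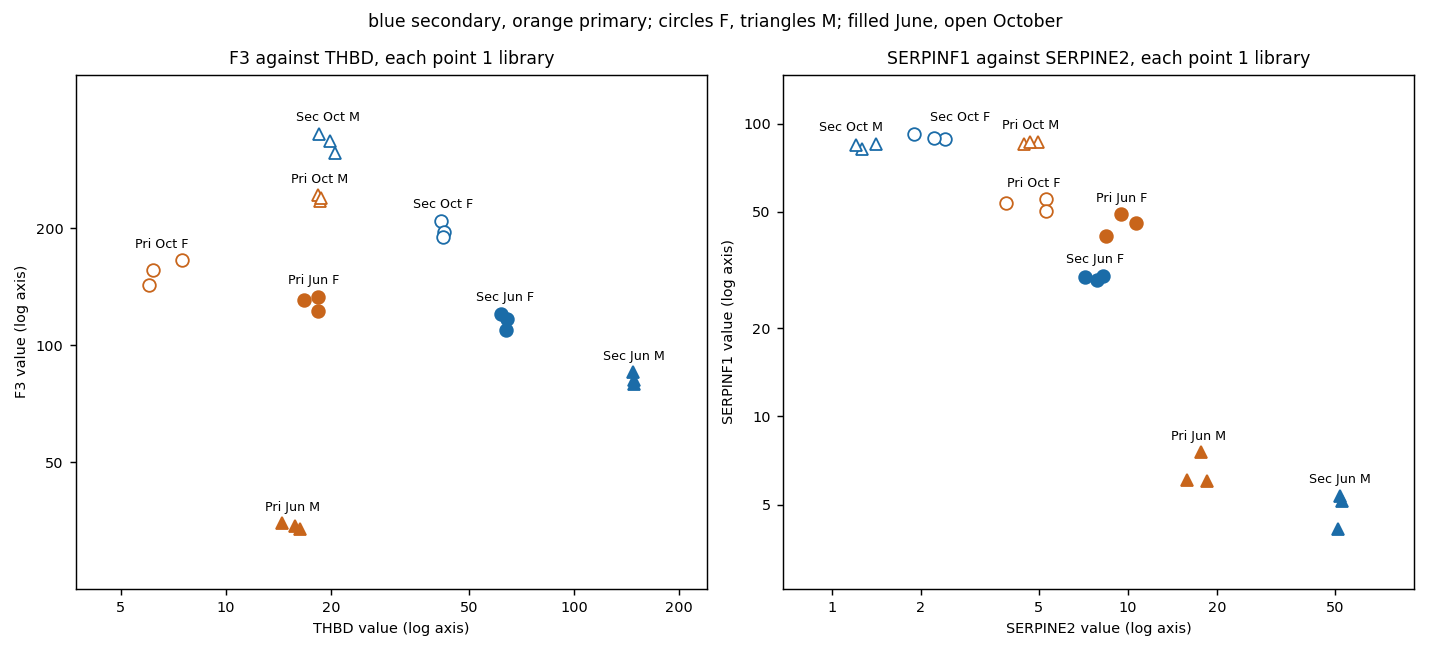
F3 against THBD (left) and SERPINF1 against SERPINE2 (right), both on log axes; each point is 1 library, coloured by follicle type, with circles for F, triangles for M, filled symbols for June and open symbols for October. Secondary June M stands at the right of both panels, with THBD of 147 to 149 and SERPINE2 of 51.0 to 52.6.

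The within-library ratio of F3 to THBD followed both genes. Its mean on the log2 scale was -0.85 in secondary June M, the only group of the 8 in which it was below 0, and 4.08 in secondary October M. It was 0.87 in secondary June F and 2.24 in secondary October F. In primary cells it went from 2.86 to 4.57 in F and from 1.15 to 3.68 in M. The ratio was therefore higher in October than in June in all 4 combinations, as a description with no test of the ratio itself.

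TFPI, the inhibitor of the tissue factor complex, was near the floor of the tables. Secondary October F was listed at 0 in all 3 libraries, and the highest values were 0.83, 1.22 and 0.93 in primary June M. The other 6 groups lay between 0.08 and 0.46. In a limma fit without the filter (18143 genes), the difference of secondary against primary cells was -0.53 in June M (adjusted p = 5.36e-06) and -0.37 in October F (adjusted p = 0.000591), and that of October against June was -0.79 in primary M (adjusted p = 2.66e-08). The differences were also called for October against June in secondary F (-0.25) and secondary M (-0.27). At such values the log2(value + 1) scale shrinks differences strongly. TFPI2, a related Kunitz-type inhibitor that acts on plasmin and other proteases, was named after its values were seen. Its group means were 199 and 293 in secondary June F and M, 278 and 172 in primary June F and M, 307 and 110 in secondary October F and M, and 538 and 116 in primary October F and M. TFPI2 rose toward October in F by 0.62 in secondary and 0.94 in primary cells, and it fell in M by 1.40 and 0.57.

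SERPINF1 was low in the June M libraries of both follicle types. Secondary June M held 4.12, 5.16 and 5.35 and primary June M 6.09, 7.55 and 6.01, whereas secondary June F held 30.0, 29.1 and 30.2 and primary June F 45.6, 48.9 and 41.2. In October the values were 92.3, 88.6 and 89.5 in secondary F, 81.8, 84.6 and 85.3 in secondary M, 55.2, 53.5 and 50.2 in primary F and 86.7, 85.3 and 86.3 in primary M. The rise from June to October was 3.86 ± 0.08 in secondary M (adjusted p = 1.2e-20, limma), 3.53 ± 0.08 in primary M (adjusted p = 2.67e-20, limma) and 1.57 in secondary F (adjusted p = 7.05e-14, limma). In primary F it was 0.22 (adjusted p = 0.0179), and this call was lost without primary June F replicate 3 (0.16, 0.112), without primary October F replicate 1 (0.19, 0.0726) and in a fit of the compared groups alone (0.0539).

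The rise of SERPINF1 was larger in M than in F by 2.29 ± 0.11 in secondary and by 3.31 ± 0.11 in primary cells (adjusted p = 1.16e-13 and 1.3e-16, limma). Between follicle types, secondary cells were lower in June (-0.59 in F and -0.36 in M) and higher in October F (0.76). In October M the difference was -0.04 (95% interval -0.19 to 0.12) and was not called. As the plot against SERPINE2 shows, the June M libraries combined the lowest SERPINF1 with the highest SERPINE2, and the October libraries had higher SERPINF1 and lower SERPINE2 than the June libraries of the same type and sex. In the RefSeq annotation of goat (ARS1.2) the neighbouring gene SERPINF2, the plasmin inhibitor alpha2-antiplasmin, did not exceed 0.14 in any library.

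SERPINH1 was abundant in every library and varied least, with group means 1.53-fold apart. Its lowest value was 602 in primary October F and its highest 1066 in secondary October F. Secondary October F held 963, 1039 and 1066 and primary October F 733, 602 and 772, a difference of 0.55 ± 0.06 (adjusted p = 3.72e-07, limma). SERPINH1 rose toward October by 0.42 in secondary M (641, 655 and 713 to 916, 878 and 893) and fell by 0.31 in primary F (855, 837 and 910 in June). The differences were 0.10 in secondary F and 0.02 in primary M, neither called. Smaller calls did not hold throughout. In June M the type difference of -0.17 (adjusted p = 0.0249) became -0.14 (0.0994) without secondary June M replicate 1, -0.16 (0.0755) without secondary June M replicate 2, -0.14 (0.101) without primary June M replicate 1 and -0.08 with the common total. In October M the difference of 0.23 (adjusted p = 0.0146) became 0.21 (0.058) without secondary October M replicate 1 and 0.14 with the common total.

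SERPINH1 binds procollagen, and 28 genes of collagen synthesis, folding and export were listed with it, itself included. Of these, 27 were present in the data. All 27 were tested. In October F, 19 of them were above the primary level in secondary cells and none below it. There 35.5% of all tested genes were called (18.3% higher and 17.2% lower). The median of the list was 0.27, beside 0.00 for all tested genes. Toward October, 21 rose and 3 fell in secondary M (median 0.39, all genes -0.01), while 2 rose and 14 fell in primary F (median -0.19, all genes 0.00). In secondary F 15 rose and 6 fell, and in primary M 16 rose and 4 fell. With the common total the split in primary M was 21 to 1. By month, 51.3%, 56.5%, 48.2% and 55.5% of all tested genes were called in secondary F, secondary M, primary F and primary M. Between types, 8 were higher and 7 lower in June F, 7 and 10 in June M (13 and 7 with the common total), and 11 and 1 in October M (5 and 1 with the common total). In June F, June M and October M, 49.3%, 59.6% and 18.5% of all tested genes were called.

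Among these genes the rule for names chose P4HA3 and P4HA1, subunits of prolyl 4-hydroxylase, the collagens COL3A1 and COL5A2, and SPARC, a collagen-binding matrix protein. P4HA3 was higher in secondary cells in all 4 comparisons (0.56, 0.96, 1.71 and 0.34 in June F, June M, October F and October M) and rose from June to October by 2.11 in primary M, 1.48 in secondary M and 1.20 in secondary F, with 0.05 in primary F, not called. COL3A1 was lower in secondary cells in June F (-0.92), June M (-1.39) and October M (-0.38). In October F it was higher in them by 0.11, a call lost without secondary October F replicate 2 (0.10, adjusted p = 0.0522), without primary October F replicate 1 (0.09, 0.0621), without primary October F replicate 3 (0.09, 0.06) and in a fit of the compared groups alone (0.235). Its rise from June to October was 1.15 in secondary F, 1.504 in secondary M, 0.49 in primary M and 0.13 in primary F, the last of which was lost in a fit of the compared groups alone (adjusted p = 0.117). COL5A2 rose toward October by 0.71 in secondary F, 1.503 in secondary M and 0.42 in primary M and fell by 0.29 in primary F. P4HA1 rose by 0.40 in secondary F, 1.06 in secondary M and 0.40 in primary M; its fall in primary F (-0.19) was lost without primary October F replicate 3 (-0.14, adjusted p = 0.0516), in a fit of the compared groups alone (0.0681) and with the common total of nuclear genes (0.0506). SPARC was higher in secondary cells in October F (0.86), where SERPINH1 was too, and lower in June F (-0.32) and June M (-1.05).

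Like the collagen list, the other lists did not move in 1 direction over all comparisons. Their counts are to be read beside the shares of all tested genes called, 49.3%, 59.6%, 35.5% and 18.5% between types in June F, June M, October F and October M, and 51.3%, 56.5%, 48.2% and 55.5% between months in secondary F, secondary M, primary F and primary M. Of the 30 plasminogen genes, 26 were in the tables and 19 were tested. Between types 11 were higher and 5 lower in June F, 11 and 7 in June M, 8 and 7 in October F and 7 and 3 in October M (4 and 4 with the common total). Their medians were 0.18, 0.28, 0.17 and 0.08, beside 0.00 to 0.01 for all tested genes. From June to October 6 rose and 6 fell in secondary F, 7 and 9 in secondary M, 7 and 7 in primary F, and 10 and 6 in primary M, with medians between -0.02 and 0.10. These counts include PLAU, PLAT, PLAUR and SERPINE2, described above. Without them 15 tested genes remained. Between types, in the same order, 9 were then higher and 4 lower, 7 and 7, 5 and 6, and 7 and 2. By month 3 rose and 5 fell, 7 and 5, 6 and 5, and 8 and 4. Plasminogen itself (PLG) was listed at 0 in 23 of the 24 libraries and at 0.08 at most.

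Named by the rule were MMP3, a protease that plasmin activates, HGF, a growth factor activated by proteolysis, S100A10, a plasminogen-binding partner of annexin A2, MRC2, a collagen receptor that partners with PLAUR, and SERPING1, the C1 inhibitor. MMP3 had group means of 21.2 in secondary June M and 0.18 in primary June M, a difference of 4.24 ± 0.13 (adjusted p = 7.21e-18, limma), and it fell by 2.97 in secondary M toward October. Like THBD, SERPINE2 and PLAUR it was highest in secondary June M. S100A10 rose from June to October in all 4 combinations, by 0.22, 1.10, 0.77 and 1.44 in secondary F, secondary M, primary F and primary M. HGF rose in the same 4, by 0.52, 1.85, 0.33 and 1.45; in primary F this was lost without primary June F replicate 3 (0.28, adjusted p = 0.0533) and without primary October F replicate 2 (0.20, 0.102). MRC2 rose by 0.90, 1.35 and 1.07 in secondary F, secondary M and primary M and fell by 0.38 in primary F. SERPING1 was lower in secondary cells in all 4 comparisons (-1.05, -1.33, -0.97 and -0.39).

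Of the 42 coagulation genes, all in the tables, 16 were tested, and the liver-made factors F2, F7, F9, F10, FGA, FGB and FGG were not among them. Between types 5 were higher and 8 lower in June F, 7 and 6 in June M (7 and 3 with the common total), 5 and 5 in October F, and 6 and 4 in October M (3 and 4 with the common total). Their medians were -0.07, -0.06, 0.05 and 0.07, beside 0.00 to 0.01 for all tested genes. From June to October 8 rose and 4 fell in secondary F, 9 and 5 in secondary M, 7 and 6 in primary F, and 7 and 4 in primary M, with medians of 0.19, 0.20, 0.18 and 0.17. Without the filter on low values, 38 of the listed genes were tested, and the counts were 10 and 9, 9 and 12, 7 and 8, and 8 and 11 in the same order, with medians between -0.05 and 0.01. With the filter but without the members F3 and THBD, 14 tested genes remained. Between types 4 of them were higher and 7 lower, 5 and 6, 3 and 5, and 5 and 4, in the order above. By month 7 rose and 3 fell, 8 and 4, 6 and 5, and 5 and 4. PROCR, the endothelial protein C receptor that works beside THBD, fell from June to October in all 4 combinations, by 0.99, 1.70, 0.61 and 1.33 in secondary F, secondary M, primary F and primary M. Its group means were highest in secondary June M (53.0), as for THBD. PROS1, the protein S cofactor of activated protein C, fell in F (-1.51 in secondary and -1.03 in primary cells) and rose in M (1.75 and 0.34). The thrombin receptor F2R rose by 2.17 in secondary F and by 0.63 in primary F, while in M its differences were -0.06 and 0.05. F2RL2, another thrombin receptor, rose in F by 1.09 and 0.56 and fell by 1.56 in secondary M. GAS6, a vitamin K-dependent ligand of TAM receptors, was lower in secondary cells in June F (-0.77), June M (-1.57) and October M (-0.85). Its lower value in October F (-0.28) was lost without secondary October F replicate 1 (-0.19, adjusted p = 0.0869), without primary October F replicate 1 (-0.20, 0.0827) and in a fit of the compared groups alone (0.123).

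Of the 34 serpin genes listed, 23 were in the tables and 11 were tested. Between types 5 were higher and 3 lower in June F, 4 and 4 in June M, 5 and 3 in October F, and 5 and 2 in October M (2 and 2 with the common total). Their medians were 0.18, -0.03, -0.03 and 0.15, beside 0.00 to 0.01 for all tested genes. From June to October 2 rose and 4 fell in secondary F, 5 and 4 in secondary M, 3 and 4 in primary F, and 5 and 3 in primary M, with medians of -0.06, 0.19, -0.03 and 0.16. These counts include SERPINE2, SERPINF1 and SERPINH1. Without them 8 tested genes remained. Between types, in the same order, 5 were then higher and 1 lower, 3 and 2, 3 and 2, and 4 and 1. By month 1 rose and 3 fell, 3 and 3, 2 and 2, and 4 and 2. SERPINB1, an intracellular inhibitor of neutrophil proteases, was higher in secondary cells in June F (1.37), June M (0.83) and October M (0.58) and lower in October F (-0.24). It fell toward October by 1.37 in secondary F, 1.72 in secondary M and 1.46 in primary M, and it rose by 0.24 in primary F. SERPINI1, a neural inhibitor of tissue-type activator, fell by 0.64 in secondary F, 0.71 in primary F and 0.81 in primary M, and its difference of 0.01 in secondary M was not called.

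**Figure D4:**
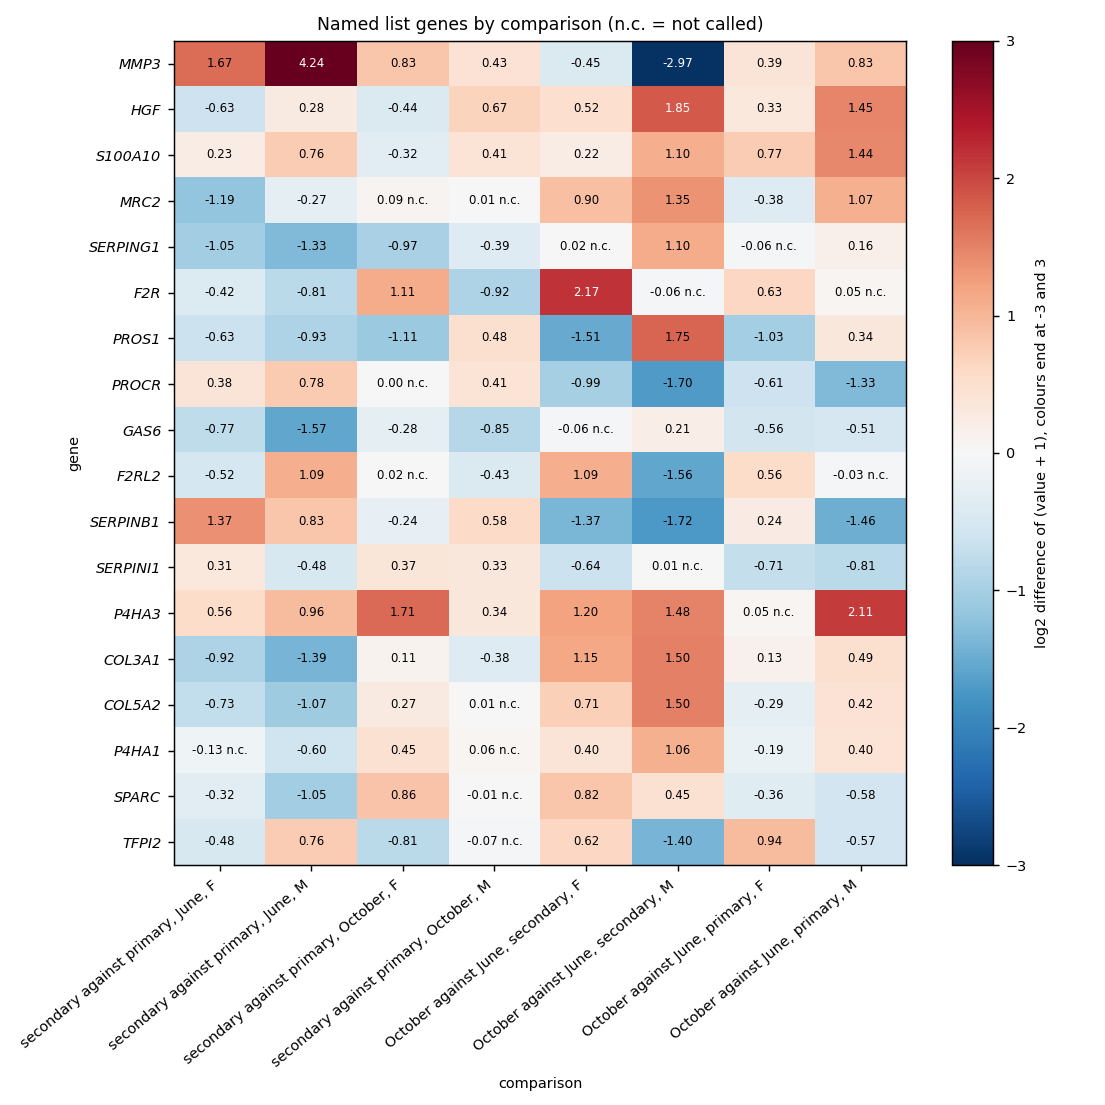
Differences (log2 of value + 1) of the named genes of the 4 lists, with TFPI2, for the 8 comparisons of follicle type and month; colour and number give the estimate, and n.c. marks those not called. PROCR is negative in all 4 month comparisons and S100A10 positive in all 4.

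Markers of other cell types moved with some of these groups. The sum of the 10 keratinocyte markers was 285 to 309 in secondary October F, where PLAU, PLAT, SERPINF1 and SERPINH1 were highest, and 4.11 to 66.8 in the other 7 groups, with a mean of 197 for KRT5 in secondary October F. The 13 mitochondrial genes also held their largest share of the total there, 11.2% to 12.7% against 8.72% to 10.85% in the other 7 groups. The part of both in the values of these 4 genes, and in the October F difference of the collagen list, was not tested. The 10 leukocyte markers in the tables summed to 36.6 to 42.8 in secondary June M, the group with the highest THBD, SERPINE2 and PLAUR, and to 13.4 to 26.6 in the other 7 groups. Of that sum, CD68 had a mean of 21.9 and CD14 of 14.8 in secondary June M, while MS4A1 was at 0 and PTPRC did not exceed 0.02 in any library. The sums of the 16 dermal papilla markers (587 to 598) and of the 11 fibroblast markers (20370 to 21460) were lowest there. The part of these in the values of THBD, SERPINE2 and PLAUR was not tested. The 9 pericyte and smooth muscle markers summed to 14760 to 15400 in primary June M, where PLAT, PLAUR and F3 were lowest, and to 9066 to 12700 in the other 7 groups. ACTA2 and TAGLN made up most of that sum, RGS5 did not exceed 0.74 and KCNJ8 was at or near 0. Its part in the values of PLAT, PLAUR and F3 was not tested. The 5 platelet markers in the tables summed to 10.1 to 17.3 and were highest in secondary October F.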

How the data were processed

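The deposited tables hold, per the file headers and values, 1 normalised expression signal per gene and library, with 2 decimals. Per the submitters' processing notes, kallisto 0.46.1 and sleuth 0.30.0 were named by the authors, with no role or order. The build, transcripts, filters and read depth are not stated in the sources used here. RNAiso Plus extraction and paired-end NEBNext Ultra libraries are recorded per the labels' protocols. Of 20326 gene identifiers, 20294 matched the goat RefSeq table (ARS1.2), used for names and neighbours only.

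The values are not counts, so limma 3.58.1 (R 4.3.3, statmod 1.5.0) was run on log2(value + 1), with 8 group means, a variance trend and robust estimation over all 24 libraries. The 13049 genes that reached 1 in 3 or more libraries were tested in 18 contrasts, with Benjamini-Hochberg adjustment and a threshold of 0.05. The procedure was tested on simulated data. No 2 libraries were copies of each other: at most 0.594% of values were identical, over genes reaching 5.

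The members and lists were chosen with earlier results of these data known. List genes that are not members were named if called in at least 6 of 8 comparisons of type and month with a group mean of at least 5, the 5 with the largest difference per list. Alternatives were 10 other settings and leaving out each library.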

Additional observations from a re-analysis of the deposited data

Results flagged for a closer look

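All values here are differences of differences (log2 of value + 1) that limma called at an adjusted p under 0.05; they passed because the effect of type or month differed between F and M, or the effect of type between June and October. With each library brought to a common total, the median of all genes moved by over 0.1 in 2 of these contrasts, by -0.10 for M minus F of the month contrast in secondary cells and by -0.16 for October minus June of the type contrast in M.

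M minus F of secondary against primary in June was 1.79 for SERPINE2, 1.41 for THBD, 1.39 for F3, 1.10 for PLAUR, 1.01 for PLAT, -0.30 for SERPINH1 and -0.62 for PLAU. In October it was -2.44 for THBD, -0.80 for SERPINF1, -0.65 for PLAUR, -0.50 for PLAU, -0.44 for SERPINE2 and -0.32 for SERPINH1. PLAUR, SERPINE2 and THBD were thus positive in June and negative in October. SERPINF1 in June (0.22) and F3 (0.12) and PLAT (-0.15) in October were not called.

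M minus F of October against June in secondary cells was 2.29 for SERPINF1, 1.24 for F3, 0.32 for SERPINH1, -0.65 for PLAT, -0.67 for PLAU, -0.68 for PLAUR, -2.27 for THBD and -3.06 for SERPINE2. In primary cells it was 3.31 for SERPINF1, 2.51 for F3, 1.57 for THBD, 1.07 for PLAUR, 0.52 for PLAT, 0.33 for SERPINH1, -0.79 for PLAU and -0.82 for SERPINE2. THBD, PLAUR and PLAT had opposite signs in the 2 follicle types.

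October minus June of secondary against primary in F was 1.34 for SERPINF1, 0.74 for THBD, 0.56 for PLAUR, 0.51 for F3, 0.42 for SERPINH1, 0.25 for PLAT, -0.34 for PLAU and -0.60 for SERPINE2. In M it was 0.40 for SERPINH1, 0.32 for SERPINF1, -0.22 for PLAU, -0.76 for F3, -0.92 for PLAT, -1.18 for PLAUR, -2.84 for SERPINE2 and -3.10 for THBD. The values in M use the libraries labelled secondary October M, which resemble the primary groups in SOX2.

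4 of these calls were lost on leaving out single libraries or under other settings. PLAT in F (adjusted p = 0.0495) was 0.26, 0.23 and 0.26 without secondary June F replicates 1, 2 and 3, 0.24 and 0.22 without primary June F replicates 1 and 3, 0.23 and 0.22 without secondary October F replicates 2 and 3, and 0.15 without primary October F replicate 2, none of them called (adjusted p 0.0645 to 0.154). It was also not called under 5 other settings, with adjusted p of 0.0666 with no filter, 0.0512 with a pseudocount of 0.1, 0.0557 with median-of-ratios factors, 0.0577 with no variance trend and 0.113 with the compared groups alone. SERPINF1 in M was 0.23 and not called without secondary June M replicate 1 (adjusted p = 0.0635) or primary June M replicate 2 (0.0661), and 0.16 with the common total (0.225). PLAU in M was -0.16 without secondary October M replicate 3 (adjusted p = 0.0656). SERPINH1 for M minus F of the month contrast in secondary cells (0.32) was 0.20 with the common total (adjusted p = 0.0512) and 0.18 with the common total of nuclear genes (0.0727), neither called.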

How the results depend on the processing

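Read depth is unknown and n is 3 per group, which limits precision most for TFPI. Of 144 member results, 144 kept direction and call with the replicate block, with the filter of 1 in 6 libraries and without robust estimation, and 143 each with no filter, a pseudocount of 0.1, median-of-ratios factors and no variance trend. The count was 137 with the compared groups alone, 132 with the common total and 131 with the common total of nuclear genes. Each result was also refitted without each library of its groups. Of these refits, 1097 kept direction and call, 43 lost the call, 4 gained it and 8 turned direction. The count of members called in June F between types was 6 with the replicate block too, and ranged from 3 to 6 on leaving out single libraries; no other count of members called moved by over 1.5 times under these settings. Over all tested genes, secondary against primary in October M called 1416 higher and 996 lower, and 742 and 2016 with the common total; October minus June of that contrast in M called 2821 and 2909, and 1556 and 4930 with it. No pairing of the samples by replicate number was seen: deviations of same-numbered libraries correlated with r of -0.281 to 0.348 (median 0.034), and 1 of 28 pairs of groups had every r over 0.1. With 3 libraries per group, such values cannot exclude that groups shared animals.

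Differences that turned direction had not been called; the cause was not tested. For secondary against primary in October M, PLAU became -0.024, PLAUR -0.007, PLAT -0.007 and THBD -0.005 with the common total, and PLAU -0.017, PLAUR -0.001 and PLAT -0.001 with the common total of nuclear genes. PLAT in primary F by month became 0.015 with the latter, and SERPINE2 for M against F in primary October 0.006 with the former. On leaving out single libraries, these ranged from -0.068 to 0.014 for PLAT (type, June F), -0.001 to 0.118 for PLAU (type, October M), -0.09 to 0.078 for PLAT (month, primary F), -0.01 to 0.047 for SERPINH1 (month, primary M) and -0.145 to 0.042 for SERPINE2 (M against F, primary October).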

Other observations

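The genes whose values followed each member most closely over the 24 libraries were ranked by Pearson's r of log2(value + 1) among 9998 genes, as a description. The 24 points share 8 groups, so r mostly reflects the group means. For SERPINE2 they were CPT1A (0.96), the mitochondrial fatty acid importer, and TMEM54 (0.955). For SERPINF1 they were LRIG3 (0.955) and LOC108635555 (0.946), and for F3 ARHGAP28 (0.947) and the aggrecanase ADAMTS4 (0.945). For THBD they were STC2 (0.959), a secreted glycoprotein, and GDF6 (0.944), a BMP family ligand. For PLAUR they were SMTN (0.932), a smooth muscle actin-binding protein, and GLI2 (0.918), a transcription factor of hedgehog signalling, for PLAT LOC102187233 (0.976) and BANK1 (0.94), and for PLAU TMEM97 (0.909) and HSPB7 (0.897). SERPINH1 was followed by FKBP10 (0.888), itself a collagen-folding chaperone, and SHMT2 (0.884). TFPI, at values near 0, was followed by GPX3 (0.928) and PIP4K2C (0.914).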
